A study of Mus musculus with 13 samples.

Results

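The data described here are the 5C-F libraries, in which damaged hepatocytes (dHeps) received a cocktail of small molecules without forskolin, set against libraries of the same cells in the solvent dimethyl sulfoxide (DMSO). The members were chosen by their labels alone. They are 4 of the 13 RNA-seq libraries of the series, 2 of 5C-F and 2 of DMSO, and all genes of the count table were compared. All cells were hepatocytes of wild-type (WT) mice whose livers had been injured with carbon tetrachloride (CCl4), and all were kept for 16 days in serum-free Hepatocyte Maintenance Medium. The 5C-F cells received GSK429286A, an inhibitor of the kinase ROCK, CID755673, an inhibitor of protein kinase D, ETC-1002, an activator of AMP-activated protein kinase, and Salidroside, a plant glycoside. The full cocktail (5C, 2 libraries) holds these 4 compounds and forskolin. It entered as the partner in which the effect of leaving out forskolin was tested, since 5C and 5C-F were compared with the same DMSO libraries. The cells were isolated by collagenase perfusion and RNA of the whole culture was sequenced, so the libraries can hold RNA of other liver cells. The labels do not say whether the libraries of a group came from separate animals or cultures. The paper says that n counts separate biological replicates and gives n = 2 for its heatmap of the removals. The p-values measure only the spread between libraries of a group, pooled over all 13 libraries of the series.

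Forskolin is a plant diterpene that switches on adenylate cyclase, the enzyme that makes cyclic AMP (cAMP), and it is also known as a ligand of the pregnane X receptor (PXR). In hepatocytes, PXR and the constitutive androstane receptor (CAR) switch on cytochromes P450, the enzymes that oxidise drugs and steroids, with Cyp3a11 as the usual marker of PXR and Cyp2b10 as that of CAR. The fatty acid receptor PPAR alpha switches on the Cyp4a family and the genes of fatty acid oxidation. ROCK drives contraction of actomyosin, and its inhibitors relax the contractile apparatus of cultured cells.

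Levels are given as FPKM (fragments scaled to gene length and library size) of libraries A and B of a group, in that order. The letters follow the order of the columns and pair nothing. Total counts of the 4 libraries lay between 31129213 and 41906389. Hepatocyte markers were high in all 4, with albumin (Alb) at 9711 and 8604 FPKM in DMSO and 18255 and 13341 in 5C-F, and transthyretin (Ttr) at 415 and 453 against 644 and 587. Markers of macrophages were also high in DMSO, whereas the T cell genes Cd3e and Cd3g were listed at 0 in all 4 libraries and the endothelial genes Pecam1 and Cdh5 lay at or under 0.0439 FPKM. Other genes of the endothelial list were expressed in DMSO, among them Lyve1 at 66 and 77.3 FPKM, Stab1 at 76.2 and 78.4 and Kdr at 11.4 and 11.6. Both 5C-F libraries differed more from each other than both DMSO libraries did. The chi-square of the counts per degree of freedom was 59.6 for the 5C-F pair and 7.57 for the DMSO pair, and the log2 difference between the 5C-F libraries followed the GC content of the gene at a Spearman correlation of 0.57 across 11193 coding genes.

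A gene was called when the adjusted p of edgeR's quasi-likelihood test was under 0.05 and the log2 fold change lay beyond 1 in either direction. Of 19884 genes tested, 632 were called higher in 5C-F than in DMSO and 840 lower, which is 3.18% and 4.22% of the genes tested. The median log2 fold change over all genes tested was -0.01. Genes called higher had a median transcript length of 2910 bases and a median GC content of 51.4%, genes called lower 5036 bases and 48.5%, and all genes tested 3586 bases and 49.1%. The part of GC content and length in the calls was not tested beyond a fit with both as an offset, in which 704 genes were called higher and 637 lower, and 1155 of the 1472 calls kept their direction and their call. Of the genes named in the text, Adcy6, Ccnd2, Crim1, Ern1, Krt19, Pfkfb3 and Sox18 lost their calls in that fit. The number of calls was 784 without DMSO A and 939 without DMSO B.

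**Figure D1:**
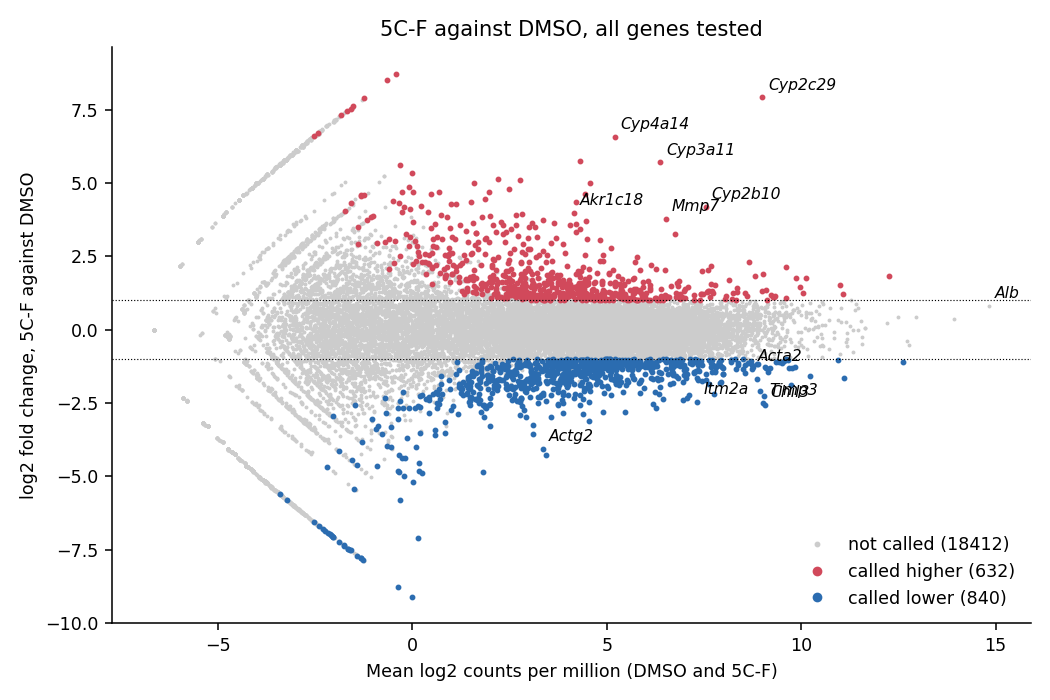
Log2 fold change of 5C-F against DMSO (vertical axis) for each gene tested, against its mean log2 CPM (counts scaled to library size) over the 4 libraries (horizontal axis). Red points are the 632 genes called higher and blue points the 840 called lower, dotted lines mark a log2 fold change of 1 in either direction, and Cyp2c29, at 7.91, lies farthest from the rest among abundant genes.

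Cytochromes P450 of drug metabolism held the largest rise among genes of at least 5 FPKM. Of 37 members tested, 16 were called higher and 2 lower, against 3.18% and 4.22% of all genes, and the median log2 fold change was 1.19. Cyp2c29, an arachidonate epoxygenase of mouse liver, was at 1.67 and 1.14 FPKM in DMSO and at 395 and 270 in 5C-F, a log2 fold change of 7.91 (SE 0.33, adjusted p = 3.73e-10). The lower 5C-F library was far above both DMSO libraries. Cyp2b10 rose from 9.9 and 8.7 to 194 and 139 FPKM (log2 fold change 4.19, SE 0.24, adjusted p = 1.85e-08). Cyp3a11 rose from 0.708 and 0.542 to 42.2 and 21.3 FPKM (5.70, SE 0.32, adjusted p = 1.85e-08). Further Cyp2c genes rose, among them Cyp2c50 at 0.281 and 0.22 against 16.7 and 9.82 FPKM (5.75, SE 0.61), Cyp2c37 at 0.899 and 0.985 against 31.3 and 14.2 FPKM (4.64, SE 0.53) and Cyp2c54 at 0.0918 and 0.198 against 5.97 and 4.02 FPKM (5.14, SE 0.67). Cyp3a25, a second Cyp3a enzyme, rose as well (0.0525 and 0.139 against 2.98 and 0.617 FPKM, 4.29, SE 0.71), but its value rested on library 5C-F A and was 2.69 without it. Cyp1a2, the enzyme that clears caffeine, rose from 0.679 and 0.637 to 6.65 and 5.14 FPKM (3.19, SE 0.34), and Cyp2a12, a steroid hydroxylase, from 12.1 and 11.1 to 26.1 and 21.1 FPKM (1.05, SE 0.21, adjusted p = 0.0031). The Cyp2a12 call was lost without DMSO B (0.99) or 5C-F A (0.84). The 2 members called lower, named after their values were seen, were Cyp2e1, which activates carbon tetrachloride (108 and 112 against 51.6 and 31.5 FPKM, -1.37, SE 0.30, adjusted p = 0.00573, but 0.0792 without 5C-F B), and Cyp1b1 (12.1 and 12.8 against 4.04 and 2.96 FPKM, -1.80, SE 0.23). Cyp1a1, first on the list, had no count in DMSO and 14 and 33 counts in 5C-F, at least 6.44-fold higher against a floor of 3 counts per library, and did not pass the test (adjusted p = 0.0828). Reads of the Cyp2c, Cyp3a and Cyp4a families can be split between near-identical copies, and single members of these families are uncertain to that degree.

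A few P450 genes stood at different levels in 5C-F and 5C. Over all genes tested, 2.69% were called higher in 5C-F than in 5C and 2.15% lower. Among the P450 list, 3 of 37 were called higher in 5C-F than in 5C and 3 lower. Cyp3a11 was at 173 and 191 FPKM in 5C and therefore lower in 5C-F by a log2 fold change of -2.40 (SE 0.26, adjusted p = 8.62e-05). Cyp3a25 was at 11.5 and 8.56 FPKM in 5C (-2.36, adjusted p = 0.0111, but -1.61 at 0.065 without 5C-F B, and over 0.05 also without 5C A or 5C B, at 0.0822 and 0.0511, and -3.96 without 5C-F A). Cyp2c38, named after its values were seen, was the third lower gene (4.96 and 4.38 against 1.29 and 1.55 FPKM, -1.62, adjusted p = 0.0316, but 0.125 to 0.175 without any one of the 4 libraries). Cyp2b10 at 88.3 and 78 FPKM in 5C, Cyp2c29 at 170 and 165 and Cyp2c37 at 4.79 and 5.26 were instead higher in 5C-F, by 1.11 (adjusted p = 0.00416), 1.10 (0.0105) and 2.29 (0.0066). These 3 rises were smaller without 5C-F A. An adjusted p can also rise because a fit without 1 library has less power. Of 962 calls against 5C, 868 kept their direction beyond the fold limit without 5C A and 851 without 5C B. Cyp2c29 was at 0.75 (adjusted p = 0.0984) without 5C-F A and at 1.10 without 5C A or 5C B, with adjusted p of 0.0926 and 0.104. Cyp2b10 was at 0.79 without 5C-F A and had an adjusted p of 0.0801 without 5C B, and Cyp2c37 was at 1.56 (0.112) without 5C-F A, with 0.0852 and 0.0801 without 5C A or 5C B. The lower Cyp3a11 level kept its call in each of these fits.

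The start regions of Cyp3a11 and Cyp2c29 are shown because both genes rose over DMSO but lay on opposite sides of 5C. Each window runs from 250 bases before to 50 bases from the start of the Ensembl canonical transcript (GENCODE, GRCm39), chr5:145816818-145817117 on the minus strand for Cyp3a11 and chr19:39275268-39275567 on the plus strand for Cyp2c29, and capitals mark the nuclear receptor half-sites AGGTCA and AGTTCA on either strand.
Cyp3a11: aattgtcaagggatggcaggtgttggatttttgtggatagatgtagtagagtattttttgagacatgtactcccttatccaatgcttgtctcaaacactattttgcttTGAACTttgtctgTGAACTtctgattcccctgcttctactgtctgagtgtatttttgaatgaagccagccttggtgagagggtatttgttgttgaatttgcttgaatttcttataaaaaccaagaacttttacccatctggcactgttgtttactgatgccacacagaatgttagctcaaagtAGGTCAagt
Cyp2c29: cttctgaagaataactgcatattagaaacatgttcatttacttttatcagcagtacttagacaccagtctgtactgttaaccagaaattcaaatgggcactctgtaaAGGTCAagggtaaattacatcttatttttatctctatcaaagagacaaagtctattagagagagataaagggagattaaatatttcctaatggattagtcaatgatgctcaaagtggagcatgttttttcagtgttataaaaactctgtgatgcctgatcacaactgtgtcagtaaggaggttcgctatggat
The Cyp3a11 window holds 3 half-sites and the Cyp2c29 window 1. Of 15595 windows of tested coding genes, 23.9% hold at least 1 half-site and 0.321% hold 3 or more, and of the 37 windows of the P450 list 12 (32.4%) hold at least 1, among them 8 of the 16 called higher. A match of letters is a description of the window and no measured binding.

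**Figure D2:**
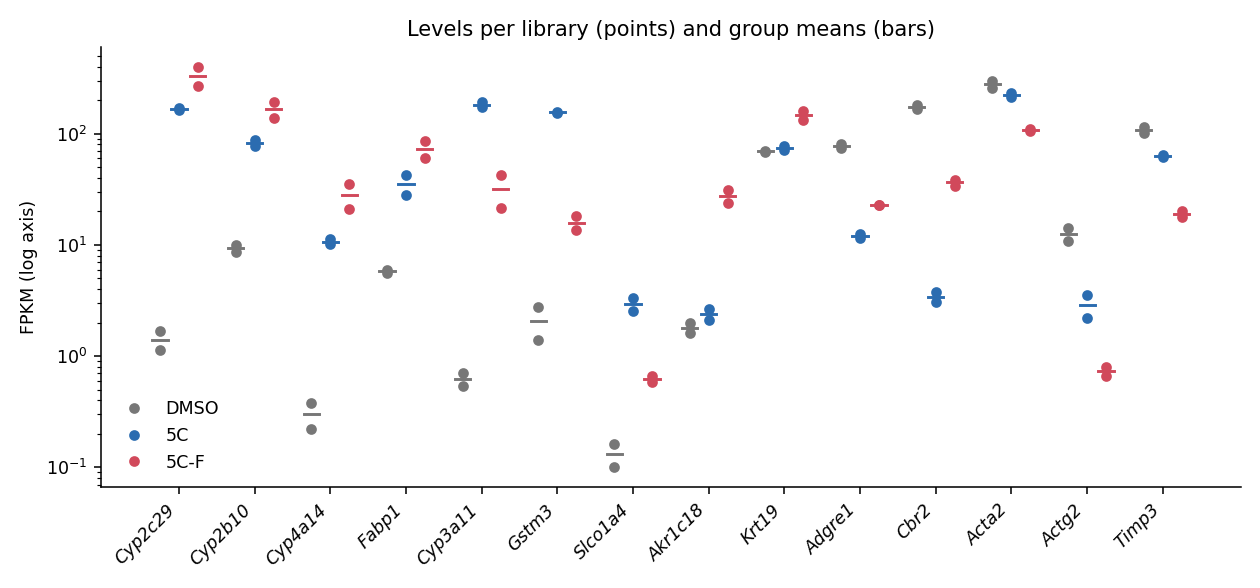
FPKM on a log axis for 14 genes in DMSO, 5C and 5C-F, with 1 point per library and a bar at the group mean. Cyp2c29, Cyp2b10, Cyp4a14 and Fabp1 stand highest in 5C-F, Cyp3a11, Gstm3 and Slco1a4 stand between DMSO and 5C, and Acta2, Actg2 and Timp3 stand lowest in 5C-F.

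Of 40 enzymes that conjugate drugs, 14 were called higher and 1 lower, with a median of 0.91. The glutathione transferases Gsta1 (0.2 and 1.48 against 12.9 and 11.6 FPKM, log2 fold change 3.92, SE 0.70) and Gsta2 (0.186 and 0.572 against 6.78 and 2.37 FPKM, 3.65, SE 0.60) rose most, and the Gsta1 value was 5.94 without DMSO B. Gstm3 rose from 2.77 and 1.39 to 18.1 and 13.7 FPKM (2.95, SE 0.34, adjusted p = 3.24e-05). In 5C it stood at 156 and 155 FPKM, so that 5C-F was lower than 5C by -3.18 (SE 0.32, adjusted p = 5.73e-05), the lowest value among the genes called in that comparison under the naming rule. Ugt2b5, a glucuronosyltransferase, rose from 4.29 and 4.02 to 18.6 and 14.2 FPKM (2.01, SE 0.29). Ugt1a1, which conjugates bilirubin, was at 3.06 and 2.68 FPKM in DMSO and 3.54 and 3.3 in 5C-F (0.28, adjusted p = 0.575). It was at 7.61 and 7.48 FPKM in 5C, and the difference of 5C-F from 5C was -1.04 (adjusted p = 0.029), which was lost without any one of the 4 libraries (adjusted p 0.0681 to 0.168). Ugt1a5, which shares exons with Ugt1a1, had a log2 fold change of 0.12 against DMSO (adjusted p = 0.946). The 1 gene called lower, named after its values were seen, was Ugt1a7c of the same locus (13.4 and 12.1 against 6.13 and 5.5 FPKM, -1.11, SE 0.25), with an adjusted p of 0.0851 without DMSO A and 0.0709 without 5C-F B.

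Among 28 genes of bile acid synthesis and transport, 4 were called higher and 1 lower (median 0.73). The uptake carrier Slco1a4 rose from 0.162 and 0.1 to 0.66 and 0.586 FPKM (2.26, SE 0.36) and stood at 3.35 and 2.52 in 5C (5C-F against 5C -2.13, adjusted p = 0.000936). Cyp7b1, of the alternative pathway of bile acid synthesis, rose from 1.62 and 1.45 to 7.26 and 4.75 FPKM (2.00, SE 0.29), and the efflux pump Abcc4 from 2.19 and 2.42 to 6.75 and 7.11 FPKM (1.61, SE 0.25). Abcc4 was also higher than in 5C (3.23 and 3.11 FPKM, 1.23, adjusted p = 0.00638), a call lost without 5C A (0.0701) or 5C B (0.0829). Against 5C, 1 of the 28 was called higher and 3 lower, and the lower genes beside Slco1a4 were named after their values were seen. Abcb11, the bile salt export pump, was at 0.377 and 0.312 FPKM in DMSO, 1.93 and 2.49 in 5C and 0.592 and 0.523 in 5C-F (5C-F against DMSO 0.72, adjusted p = 0.133, and against 5C -1.88, SE 0.30, adjusted p = 0.00121). Akr1d1, a reductase of bile acid synthesis, was at 1.07 and 1.13, 3.6 and 2.93, and 1.03 and 0.674 FPKM in the same order (-0.34, adjusted p = 0.656, and -1.83, adjusted p = 0.0135, with 0.101, 0.0702 and 0.116 without 5C A, 5C B or 5C-F B). The carrier Slco2b1 fell from 1.57 and 1.84 to 0.355 and 0.308 FPKM (-2.33, SE 0.39). Cyp7a1, the rate-limiting enzyme of bile acid synthesis, and Cyp8b1 stayed at or under 0.708 FPKM in all 4 libraries and did not pass the test. Of 12 xenobiotic receptors and partners, 2 were called higher (median 0.04). Nr1i2, which encodes PXR, rose from 4.53 and 4.79 to 8.76 and 12.9 FPKM (1.24, SE 0.24, adjusted p = 0.00229), with 0.98 without 5C-F B. Nr0b2 was at 0.0966 and 0.51 against 1.41 and 1.93 FPKM (2.50, adjusted p = 0.0235), and its adjusted p was 0.234 without DMSO A, 0.0515 without 5C-F A and 0.0839 without 5C-F B, with a value of 4.09 without DMSO B. Nr1i3, which encodes CAR, lay at or under 0.146 FPKM in all 4 libraries.

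**Figure D3:**
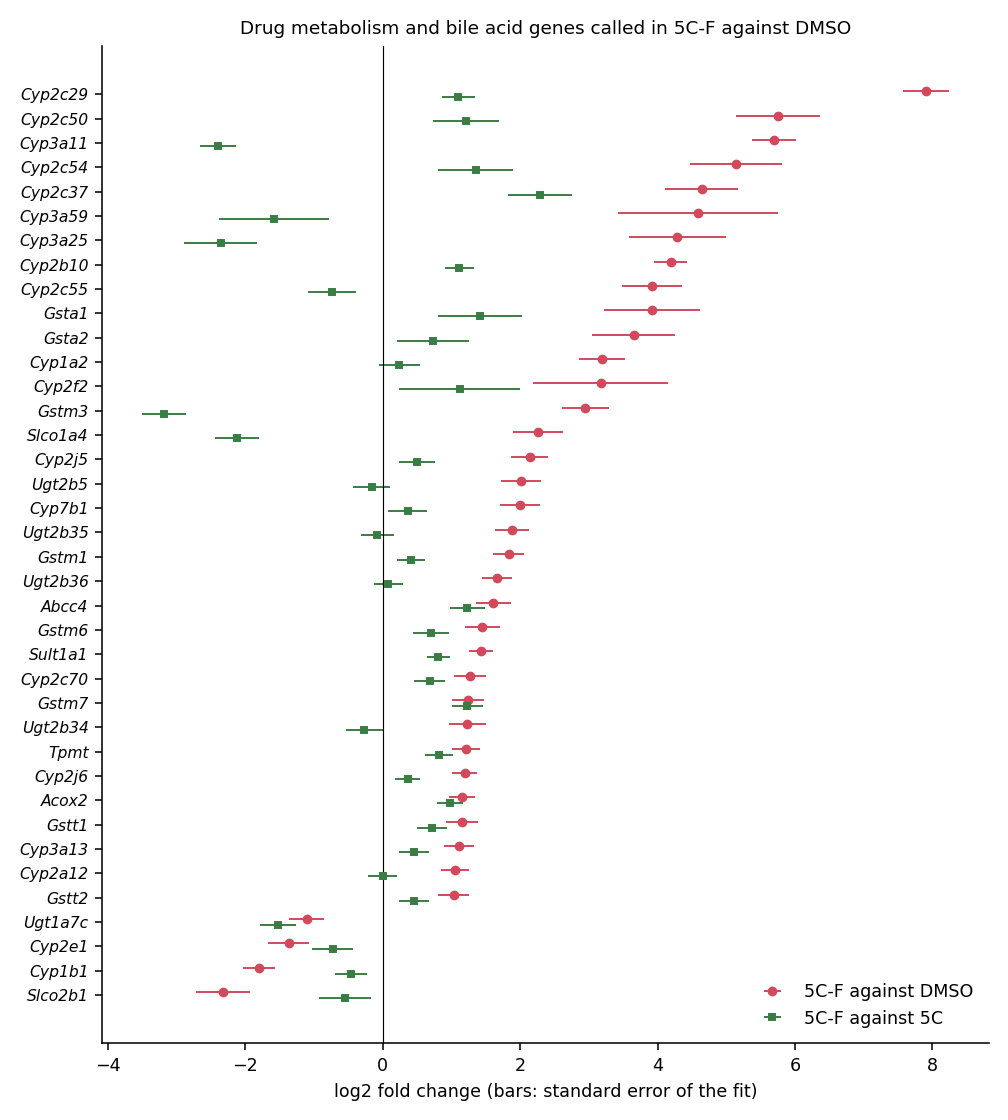
Log2 fold changes of 38 genes of the P450, conjugation and bile acid lists that were called in 5C-F against DMSO, with red points for 5C-F against DMSO and green squares for 5C-F against 5C, and bars for the standard error of the fit. Of these genes 34 were higher than in DMSO, and against 5C the genes Gstm3, Cyp3a11, Cyp3a25 and Slco1a4 lie left of 0 while Cyp2c29, Cyp2b10 and Cyp2c37 lie right of it.

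Of 38 genes of fatty acid oxidation and known targets of PPAR alpha, 13 were called higher and none lower, with a median of 0.65. Cyp4a14, a fatty acid omega-hydroxylase, was at 0.378 and 0.222 FPKM in DMSO and 35.1 and 20.9 in 5C-F (log2 fold change 6.56, SE 0.40, adjusted p = 1.17e-07). Cyp4a10, its neighbour in the same family, rose from 0.7 and 0.973 to 20.9 and 12.2 FPKM (4.34, SE 0.46). Cyp4a12a was at 0.0451 and 0.159 against 1.93 and 0.874 FPKM (3.82, SE 1.03), and its adjusted p of 0.0211 went to 0.201 without DMSO A, 0.0656 without DMSO B and 0.139 without 5C-F A. Fabp1, the liver carrier of fatty acids, rose from 5.63 and 5.92 to 60.8 and 86.1 FPKM (3.69, SE 0.31). Both Cyp4a14 (11.2 and 10.1 FPKM in 5C, 1.51, adjusted p = 0.0068) and Fabp1 (42.2 and 28 FPKM in 5C, 1.16, adjusted p = 0.0142) were higher in 5C-F than in 5C. The Cyp4a14 call was lost without 5C A (0.0701), 5C B (0.0946) or 5C-F A (0.0878), and that of Fabp1 without 5C B (0.92 at 0.18) or 5C-F B (0.94 at 0.118). Of 25 lipogenic genes, 2 were called higher (median 0.36): the lipid droplet gene Cidec (1.57) and Thrsp (1.31), whose adjusted p of 0.0355 and 0.018 went up to 0.316 and 0.189 without DMSO A, and above 0.05 also without DMSO B (0.0509 and 0.0761) or 5C-F A (0.0762 and 0.106), for Cidec also without 5C-F B (0.129). The lipogenic enzymes Acaca (-0.16) and Acly (-0.26) did not pass the test. Of 25 sterol synthesis genes, 2 were called higher (median 0.52), Tm7sf2 (5.11 and 6.02 against 11.3 and 13.2 FPKM, 1.16) and Fdft1, squalene synthase (20.2 and 20.8 against 43.1 and 41.5 FPKM, 1.07, and 1.00 without 5C-F A), while Hmgcs1 had 0.51 (adjusted p = 0.105).

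Genes of the secreted plasma proteins of hepatocytes were more often higher than lower. Of 73 tested, 21 were called higher and 2 lower, and the median was 0.79. Alb, the most abundant transcript, had a log2 fold change of 0.82 (SE 0.19, adjusted p = 0.00796), under the fold limit, and the libraries of both groups did not overlap. Serpina1d, a copy of the antitrypsin gene, rose from 12.5 and 13.6 to 82.5 and 43.1 FPKM (2.30, SE 0.28), and was also higher than in 5C (17 and 19.5 FPKM, 1.89, adjusted p = 0.000733). The major urinary proteins Mup20 (2.65 and 3.01 against 40.9 and 24.2 FPKM, 3.56, SE 0.44) and Mup3 (0.665 and 1.32 against 6.99 and 4.66 FPKM, 2.59, SE 0.44) and the acute phase gene Orm2 (1.38 and 0.745 against 5.67 and 6.88 FPKM, 2.57, SE 0.44) had the largest values of the list, and all are members of multigene families. Against 5C, 13 of the 73 were called higher and none lower. Ttr was among them, at 321 and 330 FPKM in 5C (1.02, adjusted p = 0.00381), although its value against DMSO was 0.53 (adjusted p = 0.0703), and its call against 5C was lost without 5C A (0.98), 5C B (adjusted p = 0.0525) or 5C-F A (0.91). The coagulation factor F7, named after its values were seen, was called lower against DMSO (-1.07, adjusted p = 0.0203), with an adjusted p of 0.0808 to 0.136 without any one of the 4 libraries.

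Of 20 hepatocyte transcription factors, 5 were called higher and none lower (median 0.51). The pioneer factor Foxa2 rose from 3.07 and 4.16 to 8.38 and 12.4 FPKM (1.54, SE 0.28, adjusted p = 0.00157). Foxa1 was at 1.98 and 2.2 against 6.26 and 5.66 FPKM (1.54, SE 0.37, adjusted p = 0.00994), with 0.109, 0.0704 and 0.0641 without DMSO A, DMSO B or 5C-F A. Hhex, a homeobox factor of liver development, rose from 7.7 and 7.91 to 18.6 and 20.3 FPKM (1.34, SE 0.21), and exceeded 5C (10.7 and 8.08 FPKM) by 1.15 (adjusted p = 0.00345, with 0.98 at 0.088 without 5C B). Foxa3 (7.58 and 6.24 against 15.7 and 10.6 FPKM, 0.96, adjusted p = 0.0281) and Hnf4a (19.8 and 19.8 against 24.1 and 31.7 FPKM, 0.51, adjusted p = 0.0565) lay under the fold limit. Onecut1 did not pass the test, at 0.347 FPKM or less in all 4 libraries. Of 39 genes of the urea cycle and amino acid catabolism, 7 were called higher and 1 lower (median 0.62). Bhmt and Mat1a, of the methionine cycle, were at 5.86 and 6.58 against 26.7 and 22.9 FPKM (2.03, SE 0.24) and at 6.6 and 6.53 against 17.9 and 16.7 FPKM (1.42, SE 0.25), and Cbs, which turns homocysteine into cystathionine, was at 3 and 3.12 against 8.11 and 10.7 FPKM (1.64, SE 0.22). Sdsl, which breaks down serine, rose from 8.18 and 7.09 to 22.8 and 23.1 FPKM (1.61, SE 0.28). Cbs was at 2.97 and 2.85 FPKM in 5C and higher in 5C-F by 1.79 (adjusted p = 0.00025). Cps1 (0.36) and Otc (-0.17) did not pass the test. Among 19 genes of gluconeogenesis and glycogen, 1 was called higher and 1 lower, near the 3.18% and 4.22% of all genes (median 0.40). The glucose carrier Slc2a2 rose (12.5 and 11.8 against 27.1 and 24.7 FPKM, 1.11, SE 0.22, with 1.07 and no call without DMSO B). Pfkfb3 fell (8.44 and 7.54 against 3.19 and 4.37 FPKM, -1.06, SE 0.22, with -0.96 without DMSO A and -0.89 without 5C-F A). The mitochondrial enzyme Pck2 had 0.11 (adjusted p = 0.777).

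Markers of cholangiocytes and liver progenitors had the highest median of the lists, 2.24, with 16 of 20 called higher and none lower. Cldn7, a tight junction protein, rose from 0.645 and 0.626 to 4.77 and 11.1 FPKM (3.64, SE 0.72), and Anxa13 from 0.439 and 0.959 to 4.03 and 9.98 FPKM (3.34, SE 0.63), with an adjusted p of 0.0508 without DMSO A. Tff2, a secreted trefoil peptide, had no count in DMSO and 52 and 66 counts in 5C-F, at least 16.4-fold higher against a floor of 3 counts per library, and its adjusted p of 0.0069 was 0.081 without DMSO A and 0.0656 without DMSO B. The more abundant keratin Krt19 rose from 68 and 70.5 to 132 and 161 FPKM (1.10, SE 0.19, adjusted p = 0.00094, and 1.00 without 5C-F B), and was higher than in 5C (77.1 and 71.9 FPKM, 1.07, adjusted p = 0.00249, with 0.0565 without 5C B and 0.97 without 5C-F B). Krt7, the other keratin at the head of the list, was at 35.7 and 35.6 against 23.6 and 34.1 FPKM (-0.29, adjusted p = 0.364). Against 5C, 2 of the 20 were called higher and none lower, beside 2.69% and 2.15% of all genes. The list median in 5C against the same DMSO libraries was 1.42. The summed level of the 20 genes was 2675 and 3034 FPKM in DMSO and 3640 and 3401 in 5C-F. In bulk RNA, more cells of a type and more RNA per cell cannot be told apart.

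Markers of macrophages and Kupffer cells, the resident macrophages of the liver, were lower than in DMSO but higher than in 5C. Of 30 tested, 21 were called lower and 2 higher against DMSO (median -1.26), and 20 were called higher and none lower against 5C. The summed level of the list was 7214 and 7328 FPKM in DMSO, 2641 and 2982 in 5C-F and 928 and 1033 in 5C. Adgre1, the F4/80 antigen, fell from 80.6 and 74.5 to 23 and 22.9 FPKM (-1.73, SE 0.17, adjusted p = 5.64e-06) and was at 11.5 and 12.6 in 5C (5C-F against 5C, 1.03, adjusted p = 0.0013, with 0.95 without 5C A and 0.98 without 5C-F A). Csf1r, the receptor of the macrophage growth factor, fell from 54 and 51.2 to 19.3 and 18.9 FPKM (-1.43, SE 0.21) and was at 6.01 and 8.1 in 5C (1.54, adjusted p = 0.000522). Cd68 fell from 363 and 362 to 143 and 179 FPKM (-1.15, SE 0.26, adjusted p = 0.00706, with 0.0579 without DMSO A and 0.0769 without 5C-F A) and was at 50.1 and 42.5 in 5C (1.89, adjusted p = 0.000565). Cbr2 fell from 166 and 180 to 34.2 and 38.7 FPKM (-2.23, SE 0.23) and was at 3.75 and 3.09 in 5C (3.51, SE 0.26, adjusted p = 2.83e-06). Mrc1, the mannose receptor (136 and 136 against 30 and 25.9 FPKM, -2.25, SE 0.18), and the folate receptor Folr2 (6.63 and 7.32 against 1.27 and 1.28 FPKM, -2.43, SE 0.42) fell as far. Timd4, a marker of embryo-derived Kupffer cells, was lower by at least 20.8-fold (50 and 54 counts against 0 and 2), and its adjusted p of 0.0477 rose to between 0.0895 and 0.197 without any one of the 4 libraries. Marco was at 17.1 and 15.9 FPKM in DMSO, 3.62 and 11 in 5C-F (-1.18, adjusted p = 0.0682) and 1.52 and 1.27 in 5C (2.47, adjusted p = 0.00348, with 0.0647 without 5C B and 0.0642 without 5C-F B). The 2 markers called higher than in DMSO, named after their values were seen, were Cd14 (53.9 and 53.1 against 117 and 122 FPKM, 1.18, SE 0.21), which injured hepatocytes can also express, and the iron exporter Slc40a1 (0.978 and 0.784 against 2.07 and 1.64 FPKM, 1.10, with an adjusted p of 0.0559, 0.14 and 0.0924 without DMSO A, DMSO B or 5C-F A). Fewer macrophages and less RNA per macrophage cannot be told apart in these libraries.

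**Figure D4:**
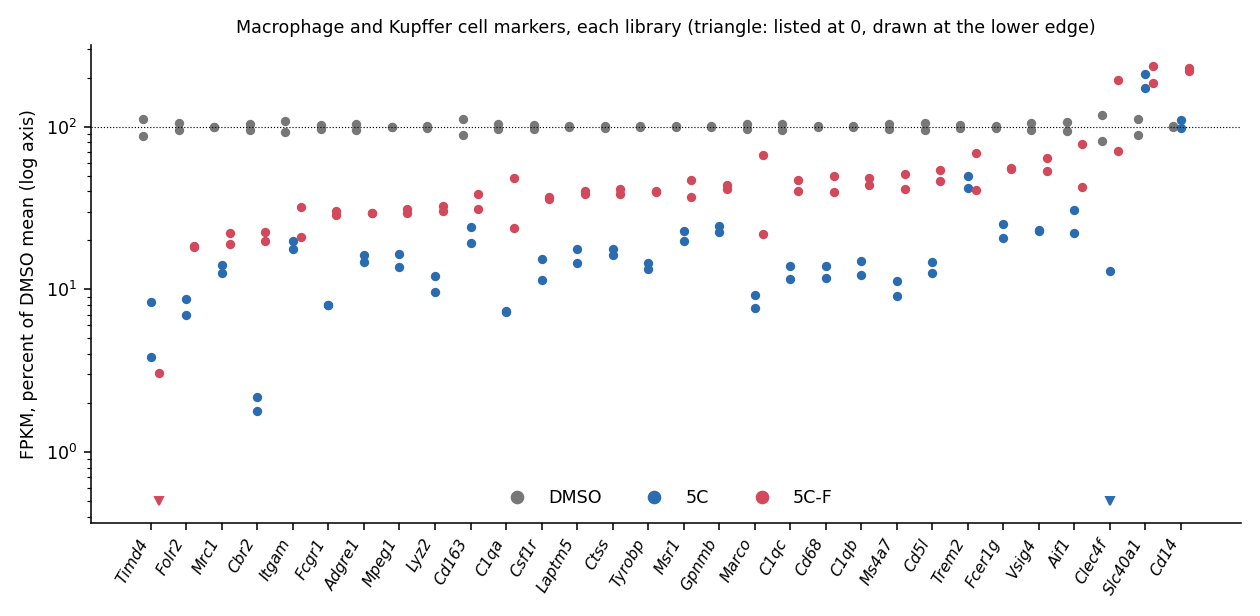
FPKM of 30 macrophage and Kupffer cell markers in each library of DMSO, 5C and 5C-F, as percent of the DMSO mean on a log axis, ordered by the log2 fold change of 5C-F against DMSO. For most markers the 5C-F points lie below the DMSO points and above the 5C points, as for Cbr2 and Lyz2, and Cd14 lies above both.

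Other genes of leukocytes were among the 12 lowest values of genes of at least 5 FPKM. Chil3, a secreted lectin of macrophages, fell from 541 and 577 to 85.7 and 101 FPKM (-2.56, SE 0.21). Siglec1 (18.4 and 16.1 against 2.36 and 3.5 FPKM, -2.54, SE 0.27), Tlr8 (7.22 and 5.47 against 0.893 and 1.29 FPKM, -2.52, SE 0.39), Ms4a4a (94.1 and 91.6 against 16 and 9.91 FPKM, -2.81, SE 0.56) and Ltc4s (10.8 and 12.9 against 1.43 and 1.69 FPKM, -2.91, SE 0.73) fell as well. Ltc4s had an adjusted p of 0.0623 to 0.0973 without any one of the 4 libraries and Ms4a4a of 0.0514 without 5C-F B. Of 12 NADPH oxidase subunits, which make superoxide in phagocytes, 5 were called lower and none higher (median -1.18). Cybb fell from 27.6 and 26.2 to 8.45 and 6.03 FPKM (-1.86, SE 0.25), Ncf1 from 35.6 and 34.2 to 8.53 and 13.1 FPKM (-1.68, SE 0.24) and Rac2 from 16.2 and 16.8 to 5.94 and 7.36 FPKM (-1.29, SE 0.28, with an adjusted p of 0.0573 without 5C-F A). Ncf1 and Rac2 were at 4.46 and 4.83 and at 1.66 and 2.55 FPKM in 5C and were called higher in 5C-F (1.31 at an adjusted p of 0.003, but 0.0564 without 5C A, and 1.75 at 0.00156). Cyba, the partner of Cybb, was at 206 and 211 against 135 and 145 FPKM (-0.55, adjusted p = 0.135). These subunits are expressed in the macrophages whose markers fell, and their part in the change was not tested. The endothelial list had 3 of 20 called lower and 1 higher. Its log2 fold change was negative in 13 and positive in 6 (median -0.71, and -0.37 with the offset for GC content and length). Its summed level was 195 and 208 FPKM in DMSO and 73.5 and 86.3 in 5C-F. Without Lyve1 and Stab1, left out after the data were seen, the sum was 52.7 and 52.6 against 45.5 and 52.5 FPKM. Leaving out members that fell makes a flat sum likely, and the source of the fall was not tested. Lyve1 (66 and 77.3 against 13.4 and 12.9 FPKM, -2.42, SE 0.23) and Stab1 (76.2 and 78.4 against 14.6 and 20.9 FPKM, -2.10, SE 0.23) are also found on macrophages, and both were higher than in 5C by 2.26 and 1.86 (adjusted p = 5.73e-05 and 0.00023). Kdr, a receptor of vascular growth factor, fell from 11.4 and 11.6 to 4.48 and 4.83 FPKM (-1.28, SE 0.23). Sox18 had 2 counts in each DMSO library and 27 and 44 in 5C-F, at least 9.8-fold higher, with an adjusted p of 0.0493 and of 0.0871 to 0.259 without any one of the 4 libraries.

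Chemokines moved in both directions. Of 30 tested, 4 were called higher and 3 lower (median 0.43). Cxcl5, a neutrophil attractant, rose from 0.543 and 0.861 to 7.71 and 7.87 FPKM (3.50, SE 0.65), and Cxcl13 from 16.1 and 15.8 to 48.4 and 48.7 FPKM (1.63, SE 0.31). Cxcl3 had no count in DMSO and 18 and 26 counts in 5C-F, at least 6.08-fold higher, with an adjusted p of 0.0427 and of 0.0816 to 0.233 without any one of the 4 libraries. Pf4 (96.2 and 112 against 36.4 and 33.4 FPKM, -1.55, SE 0.30) and Ccl6 (118 and 128 against 50.2 and 61.5 FPKM, -1.12, SE 0.20), both made by macrophages, fell, and both exceeded 5C, by 1.78 (adjusted p = 0.00256) and 2.03 (5.73e-05). Ccl8 was at 42.4 and 42.8 FPKM in DMSO and 20.8 and 19.2 in 5C-F (-1.06, adjusted p = 0.0515), and at 0.933 and 1.78 in 5C. Its difference from 5C, 3.98 (SE 0.44, adjusted p = 8.29e-05), was the highest among the genes named in that comparison. Ccl2 was at 44 and 43.9 against 77.2 and 93.4 FPKM (0.98, adjusted p = 0.0184), under the fold limit, while Ccl3 had 0.49 (adjusted p = 0.559) and Ccl24 and Cxcl10 lay under 0.7 FPKM in all 4 libraries and did not pass the test. Among 26 cytokine and acute inflammatory genes, Lcn2 rose (185 and 209 against 643 and 674 FPKM, 1.77, SE 0.21), as did the interleukin antagonist Il1rn (0.667 and 0.632 against 2.65 and 2.09 FPKM, 1.90, SE 0.30). Ptgs2, cyclooxygenase-2, fell from 6.67 and 6.23 to 1.32 and 1.22 FPKM (-2.32, SE 0.31) and was at 4.06 in both 5C libraries (-1.57, adjusted p = 0.00431). S100a8, a granulocyte protein, was at 2.52 and 4.25 against 0.744 and 0.686 FPKM (-2.21, adjusted p = 0.0262, with 0.0629 to 0.194 without any one of the 4 libraries). Il1a had -2.01 (adjusted p = 0.208) and Il1b lay at or under 0.0573 FPKM. In all, 2 of these 26 were called higher and 3 lower (median -0.31). Of 30 interferon-stimulated genes, 1 was called higher and 1 lower, shares near the 3.18% and 4.22% of all genes. Ifit1 rose (1.5 and 2.13 against 7.76 and 5.04 FPKM, 1.85, SE 0.34) and Ifi27l2a fell (297 and 276 against 34 and 54.4 FPKM, -2.68, SE 0.35), and the median was 0.15. Ifit2 stood at 4.98 and 5.49 against 5.04 and 5.22 FPKM.

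Of 24 contractile genes and targets of serum response factor, 7 were called lower and none higher, with a median of -0.46. Actg2, the gamma actin of smooth muscle, fell from 10.8 and 14.1 to 0.663 and 0.795 FPKM (-4.07, SE 0.42, adjusted p = 1.23e-05), the lowest value under the naming rule. It was at 2.2 and 3.58 FPKM in 5C (-1.89, adjusted p = 0.0089, with 0.125, 0.0556 and 0.0594 without 5C B, 5C-F A or 5C-F B). Calponin (Cnn1) fell from 6.74 and 8.57 to 0.566 and 1.33 FPKM (-3.00, SE 0.41), and the smooth muscle myosin Myh11 from 4.63 and 4.96 to 0.432 and 0.867 FPKM (-2.87, SE 0.37). Acta2, the smooth muscle actin of activated stellate cells, fell from 255 and 300 to 110 and 105 FPKM (-1.34, SE 0.21, adjusted p = 0.000416). It was at 233 and 215 FPKM in 5C, a difference of -0.95 (adjusted p = 0.00891) that lay under the fold limit. Vinculin (Vcl) was at 47.2 and 40.3 against 9.04 and 9.51 FPKM (-2.21, SE 0.51, adjusted p = 0.00792), and its adjusted p was 0.0574, 0.0736 and 0.0662 without DMSO A, 5C-F A or 5C-F B. Of 20 targets of YAP and TEAD, Cyr61 fell from 265 and 286 to 84.7 and 110 FPKM (-1.48, SE 0.18) and Crim1 from 29.2 and 29.6 to 14.4 and 10.4 FPKM (-1.22, SE 0.23, and -0.97 without 5C-F B), while Wwc1 was called higher (1.01, with an adjusted p of 0.0755 and 0.0682 without DMSO A or DMSO B and 0.87 without 5C-F B). Ctgf, at 273 and 298 against 189 and 187 FPKM, had -0.58 (adjusted p = 0.0303), and the median of the list was -0.51.

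Of 38 collagens and basement membrane genes, 5 were called lower and 3 higher. The log2 fold change was negative in 28 and positive in 10 (median -0.57, and -0.38 with the offset for GC content and length). Col4a6 fell from 7.5 and 7.79 to 1.89 and 2.99 FPKM (-1.63, SE 0.21), while Lamb3 (0.355 and 0.262 against 1.13 and 3.02 FPKM, 2.75, SE 0.54), a subunit of an epithelial laminin, rose, as did Col15a1 (1.28 and 1.25 against 2.95 and 3.08 FPKM, 1.27, SE 0.22). Col4a1 and Col4a2 had -0.65 and -0.55 (adjusted p = 0.0116 and 0.036), under the fold limit. Of 26 matrix proteases and inhibitors, 4 were called higher and 6 lower. Timp3, an inhibitor of metalloproteases, fell from 115 and 101 to 17.7 and 20 FPKM (-2.50, SE 0.35, adjusted p = 0.000162) and lay below 5C (64.1 and 61.4 FPKM, -1.64, adjusted p = 0.00664, with 0.0544, 0.0512 and 0.0561 without 5C B, 5C-F A or 5C-F B). Mmp10 fell from 9.41 and 11.5 to 3.15 and 2.98 FPKM (-1.74, SE 0.27), and Ecm1 from 427 and 443 to 183 and 236 FPKM (-1.03, SE 0.22, and -0.90 without 5C-F A). Mmp7, matrilysin, rose from 9.31 and 14.4 to 127 and 193 FPKM (3.77, SE 0.79, adjusted p = 0.00406, with 0.073 without DMSO A), and Mmp12 from 2.11 and 1.84 to 6.42 and 8.11 FPKM (1.90, SE 0.25). Mmp3 (0.31) and Mmp2 (-0.32) did not pass the test. Markers of stellate cells and fibroblasts were called in both directions, 4 higher and 4 lower of 25, with a median of -0.02. Lrat, which stores retinol in quiescent stellate cells, rose from 0.0613 and 0.0599 to 1.65 and 0.956 FPKM (4.45, SE 0.67), and Rgs5 (0.409 and 0.226 against 4.57 and 3.86 FPKM, 3.75, SE 0.34) and Tcf21 (0.791 and 0.601 against 4.94 and 3.35 FPKM, 2.60, SE 0.50) rose with it. Hgf, hepatocyte growth factor, was at 0.525 and 0.714 against 0.165 and 0.132 FPKM (-2.03, adjusted p = 0.0164, with 0.0568 to 0.118 without any one of the 4 libraries), and the receptors Pdgfra and Pdgfrb had 0.59 and 0.02 (adjusted p = 0.0802 and 0.958). The summed level of this list was 2206 and 2215 FPKM in DMSO and 1960 and 1738 in 5C-F.

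Of 24 genes of the cAMP response tested in 5C-F against DMSO, edgeR called 0 in either direction, beside 3.18% and 4.22% of all genes called higher and lower, DESeq2 called 0, and 10 had an unadjusted p under 0.05, next to 5529 of 19884 genes in all. The median was -0.23. The same list had a median of 0.02 in 5C, with forskolin, against the same DMSO libraries and of -0.12 in 5C-F against 5C. Pck1, the gluconeogenic enzyme that cAMP induces in liver, was at 1.63 and 1.57 against 2.37 and 2.67 FPKM (0.68, adjusted p = 0.131) and G6pc at 1.09 and 2.18 against 1.85 and 1.4 FPKM (0.03, adjusted p = 0.996). Against 5C, 2 of the 24 were higher and 1 lower, named after their values were seen as Igfbp1 (1157 and 992 FPKM in 5C, 2274 and 2016 in 5C-F, 1.10, adjusted p = 0.00248), Mcub (2.28 and 1.23 against 7.97 and 6.66 FPKM, 2.16, adjusted p = 0.0121) and the phosphodiesterase Pde4b (0.965 and 1.19 against 0.496 and 0.261 FPKM, -1.40, adjusted p = 0.0117). The Igfbp1 call was lost without 5C B (0.0654) or 5C-F A (0.97), that of Mcub without 5C A, 5C B or 5C-F A (0.0501, 0.151 and 0.0544) and that of Pde4b without 5C B or 5C-F B (0.123 and 0.112). The cAMP response element TGACGTCA, searched on both strands in the windows described for Cyp3a11, is present in 5 of the 24 genes (Dusp1, Gem, Mcub, Ppargc1a and Sik1) and in 2.87% of all windows. Of 24 phosphodiesterases and other genes of cAMP signalling, 5 were called lower and 1 higher (median -0.41, and -0.09 with the offset for GC content and length), and all 5 were adenylate cyclases. Adcy7 fell from 5.17 and 4.85 to 0.637 and 1.02 FPKM (-2.58, SE 0.30, adjusted p = 3.13e-05) and Adcy5 from 2.29 and 2.57 to 0.863 and 1 FPKM (-1.36, SE 0.28). Adcy9 (-1.76) and Adcy8 (-2.30, under 0.35 FPKM throughout) lost their calls without DMSO A (adjusted p = 0.184 and 0.203) or 5C-F A (0.145 and 0.147), and Adcy8 also without 5C-F B (0.0576). Adcy6, named after its values were seen, had -1.17 (adjusted p = 0.0148, with 0.0944, 0.0743 and 0.147 without DMSO A, DMSO B or 5C-F A). Adcy1 and Adcy2 had -0.23 and 0.60 (adjusted p = 0.539 and 0.288). Rapgef4, a cAMP-bound exchange factor named after its values were seen, was the gene called higher (1.24, with 0.0955 and 0.0674 without DMSO A or 5C-F A).

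Of 32 cell cycle genes, none was called higher and 1 lower (median 0.05), no more than the 3.18% and 4.22% of all genes. The gene called lower was cyclin Ccnd2 (34 and 29.2 against 14.5 and 12.5 FPKM, -1.20, SE 0.22), with Mki67 at -0.10 and Top2a at -0.37. Of 16 cell cycle inhibitors and p53 targets, Gdf15 (10.1 and 12.2 against 23.6 and 27.9 FPKM, 1.23, with an adjusted p of 0.0563 without DMSO A) and Cdkn1c (4.34 and 5.49 against 11.6 and 9.58 FPKM, 1.14, with 0.0865 without DMSO A and 0.95 without 5C-F A) were called higher, while Cdkn1a had -0.18 and Cdkn1b 0.02 (adjusted p = 0.509 and 0.987). Of 31 apoptosis regulators, edgeR called 0 and DESeq2 0, with 11 at an unadjusted p under 0.05, next to 5529 of 19884 genes in all. At the shares of all genes, 3.18% and 4.22%, a list of this size can hold few calls or none. Bcl2 had -0.58 and Bcl2l1 0.25 (adjusted p = 0.146 and 0.359). Of 8 genes of MHC class II, edgeR and DESeq2 called 0, with 1 at an unadjusted p under 0.05, and so few genes cannot depart from those shares by a count of 0. H2-Aa had 0.21 and H2-Ab1 -0.61 (adjusted p = 0.884 and 0.218). Of 21 NRF2 targets, 3 were called higher and none lower (median 0.62): Osgin1 (5.25 and 5.21 against 14.8 and 27.9 FPKM, 2.04, SE 0.31), Nqo1 (2.22 and 2.02 against 5.9 and 5.04 FPKM, 1.39, with 0.104, 0.126 and 0.0908 without DMSO A, DMSO B or 5C-F A) and Gclc, of glutathione synthesis (18.8 and 19 against 43.3 and 42.8 FPKM, 1.21, SE 0.19). Hmox1, another NRF2 target, was at 106 and 107 against 57.1 and 74.6 FPKM (-0.67, adjusted p = 0.0117). Osgin1 was also higher than in 5C (5.9 and 3.57 FPKM, 2.26, adjusted p = 0.000529). Of 24 genes of the unfolded protein and ATF4 response, none was called higher and 1 lower, near the 3.18% and 4.22% of all genes. The gene called lower was the stress sensor Ern1 (-1.12), with Hspa5 at -0.14 and Hsp90b1 at -0.20.

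Over all genes tested, the comparison of 5C-F with 5C called 534 genes higher and 428 lower. This split depended on scaling, with 55.5% of calls higher in the fit described, 38.6% with library sizes alone and 73.6% with the offset for GC content and length, and these scalings put the median log2 fold change of all genes at -0.108 and 0.136. With the offset, 667 of the 962 calls against 5C kept their direction and their call. The log2 fold changes against 5C followed GC content at a Spearman correlation of 0.37 across 11193 coding genes, beside 0.12 for those against DMSO. Of the differences from 5C given above, those of Adgre1, Cyp2c29, Igfbp1, Krt19 and Ttr lost their calls with library sizes alone, and those of Krt19 and Ugt1a1 with the offset. Akr1c18, which inactivates progesterone, was at 1.63 and 1.97 FPKM in DMSO, 2.1 and 2.64 in 5C and 31.3 and 23.9 in 5C-F. It rose over DMSO by 3.97 (SE 0.42, adjusted p = 1.3e-05) and over 5C by 3.64 (adjusted p = 9.49e-05), and its group means in the 4 other removals of 1 compound lay between 1.2 and 4.01 FPKM, the latter from 1 library. Tbx1, a T-box transcription factor, had the same pattern, at 2.2 and 2.79, 3.91 and 2.81, and 14 and 20.2 FPKM in DMSO, 5C and 5C-F (5C-F against 5C 2.44, adjusted p = 0.000171). Bex1 was at 8.64 and 12.6 FPKM in 5C-F and under 2.7 in the other 4 libraries (3.22 against 5C, adjusted p = 0.00121, and 2.09 against DMSO, which was lost without DMSO A, DMSO B or 5C-F B at 0.0755, 0.0823 and 0.0578). Itm2a, a membrane protein, fell stepwise from 142 and 171 FPKM in DMSO over 100 and 95.2 in 5C to 26.8 and 28.5 in 5C-F (-2.47 against DMSO, -1.73 against 5C). Cthrc1 (14.7 and 12.5 against 1.69 and 4.06 FPKM, -2.15), Tmem255a (30.5 and 27.9 against 6.79 and 5.9 FPKM, -2.10) and Igfbp5 (8.01 and 7.9 against 1.26 and 1.72 FPKM, -2.32) were lower in 5C-F than in 5C. Against DMSO, Cthrc1 had -0.30 and Tmem255a -0.98, while Igfbp5 was called lower (-1.33), though it was at -0.70 without DMSO A and had an adjusted p of 0.0578 without 5C-F A. The Cyp3a11 mean was below its 5C mean of 182 FPKM in other removals too, at 41.9 in 5C-G, 78.3 in 5C-C and 89.4 in 5C-E against 31.8 in 5C-F, where the letter names the compound left out, but it was 192 in the 1 library of 5C-S. The Cyp2c29 mean was 333 FPKM in 5C-F and 4.63, 29.4 and 40.7 in 5C-G, 5C-C and 5C-E, while 5C-S was at 178, near the 5C mean of 167. These groups were not tested against 5C-F.

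**Figure D5:**
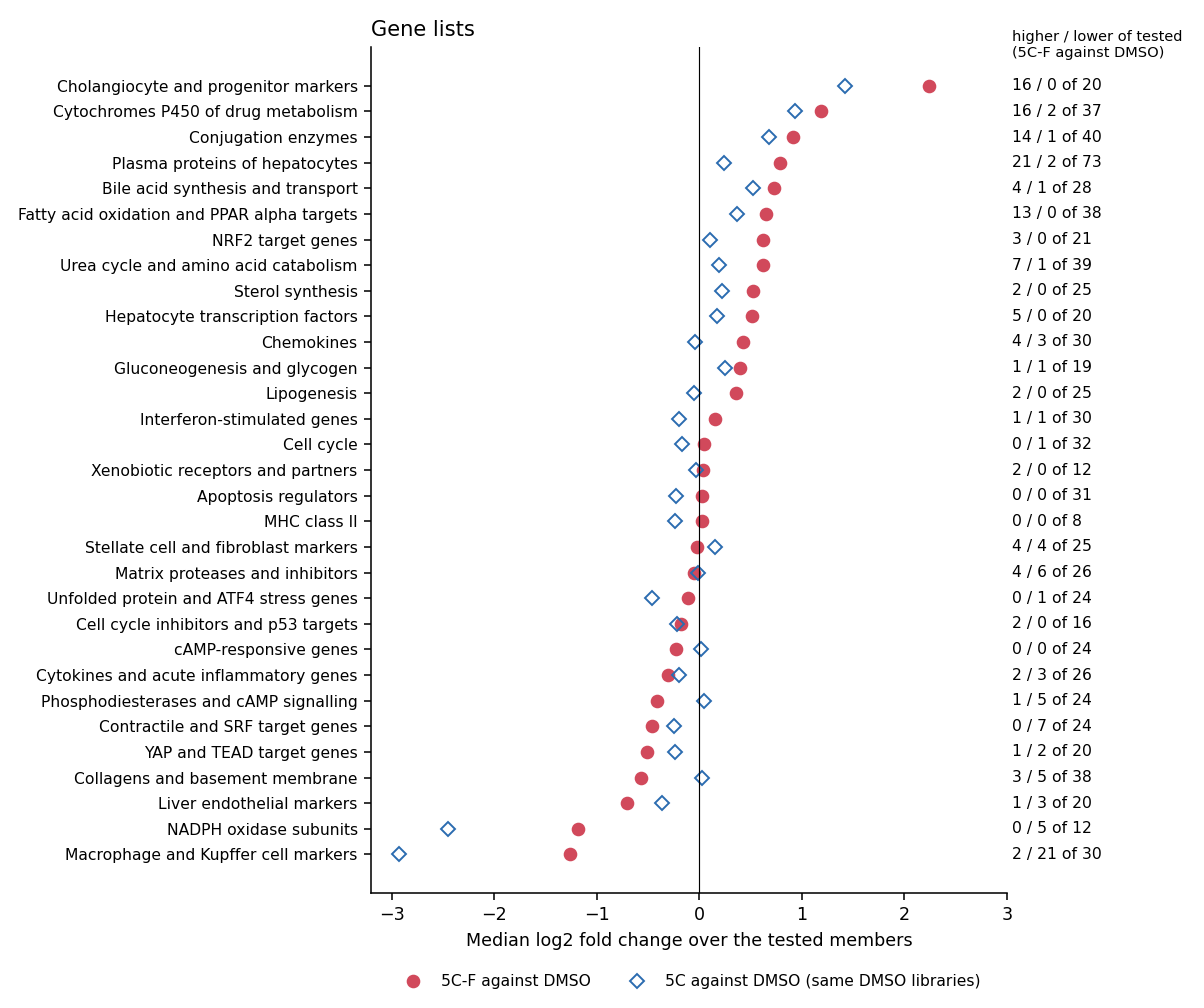
Median log2 fold change over the tested members of each gene list, as red circles for 5C-F against DMSO and open blue diamonds for 5C against the same DMSO libraries, with the numbers called higher and lower of those tested in 5C-F against DMSO at the right. Cholangiocyte and progenitor markers stand highest at 2.24, and macrophage markers lowest at -1.26 in 5C-F and -2.93 in 5C.

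Among the highest values under the naming rule, a small group belongs to no list. Ltb, lymphotoxin beta, rose from 0.397 and 0.106 to 4.84 and 9.4 FPKM (4.79, SE 0.71), and Smim22, a small epithelial membrane protein, from 0.292 and 0.114 to 4.37 and 6.53 FPKM (4.69, SE 0.63). Sftpd, the lung surfactant protein D, and Dmbt1, a secreted scavenger protein of epithelia, were at 0.158 and 0.571 against 3.44 and 7.53 FPKM (3.95, SE 0.90) and at 0.149 and 0.224 against 2.62 and 9.23 FPKM (5.00, SE 1.19). Sftpd had an adjusted p of 0.112 without DMSO A and 0.0528 without 5C-F B, and Dmbt1 of 0.115, 0.0746 and 0.0705 without DMSO A, DMSO B or 5C-F B. Both 5C-F libraries lay above both DMSO libraries for each of the 4 genes, which the naming rule required and which adds no support.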

How the data were processed

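Per the paper, Novogene sequenced total RNA as read pairs, here of 13 libraries. Per the labels, reads were mapped to GRCm39 and counted with featureCounts of Subread, and the authors used DESeq2. The annotation release and strand setting are not given in the sources used here. The authors deposited raw counts per gene and FPKM values, with no sample column left unused (0). The deposited counts of 27141 genes were filtered with filterByExpr (minimum count 10, 19884 genes left), scaled by TMM and fitted over all 13 libraries with edgeR 4.0.16 in R 4.3.3, with 6 residual degrees of freedom and Benjamini-Hochberg adjustment. DESeq2 1.42.0 and limma 3.58.1 served as alternatives, and the edgeR script was tested on simulated data. FPKM values are shown as levels. Gene positions, GC content and start windows came from GENCODE on GRCm39.

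The comparison and its 33 gene lists (860 of 878 names found in the table) were chosen with earlier results of these data known. Genes were named by rule: the 12 highest and 12 lowest called log2 fold changes at 5 FPKM or more without overlap of the groups, the genes of the study's text, up to 4 called members and the first 2 genes of each list, and the 6 highest and 6 lowest of 5C-F against 5C. An exact permutation test of 2 against 2 libraries cannot pass the threshold and was not run. Some genes that the rule names are not reported here.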

Additional observations from a re-analysis of the deposited data

How the results depend on the processing

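The calls of 5C-F against DMSO numbered 1472 and ran from 784 to 1312 when each library was left out, 760 with limma on log2(FPKM + 1) and 2886 at a log2 threshold of 0.5. The calls of 5C-F against 5C numbered 962 and ran from 294 to 953, 341 with limma on log2(FPKM + 1), 1672 at unadjusted p and 2120 at a log2 threshold of 0.5. The cause was not tested. DESeq2 made 1708 and 1222 calls. Of the calls against DMSO named in the text, limma on log2(FPKM + 1), a scale that shrinks the change of low genes, ended 24, among them Slco1a4 (0.52, adjusted p = 0.133), Lamb3 (1.16, 0.0609), Cyp3a25 (1.21, 0.0926), Col15a1 (0.82) and Adcy5 (-0.83), and otherwise Adcy6, Adcy8, Adcy9, Cdkn1c, Cidec, Cxcl3, Cyp2a12, Dmbt1, Ern1, F7, Hgf, Igfbp5, Pfkfb3, Rapgef4, Slc40a1, Sox18, Thrsp, Timd4 and Wwc1. It kept the call and moved the value by over 1.5 times for Anxa13 (2.15), Cldn7 (2.35), Cyp1a2 (2.05), Cyp2c50 (3.47), Cyp2c54 (2.37), Cyp4a12a (1.09), Gsta2 (1.91), Il1rn (1.03), Lrat (1.10), Ltb (2.65), Myh11 (-1.83), Nr0b2 (1.05), Rgs5 (1.99), S100a8 (-1.33), Sftpd (2.19), Slco2b1 (-1.02), Smim22 (2.41), Tcf21 (1.59) and Tff2 (1.80). A pseudocount of 0.1 ended 13, those of Adcy6, Adcy8, Adcy9, Cxcl3, Dmbt1, Foxa1, Hgf, Ltc4s, Mmp7, Sftpd, Slc40a1, Vcl and Wwc1. It moved Sox18 to 2.20, Tff2 to 4.69 and Timd4 to -2.87. Of the calls against 5C given in the text, limma on log2(FPKM + 1) ended those of Abcc4 (0.93), Adgre1 (0.88), Cyp2b10 (0.97), Cyp2c29 (0.96), Hhex (0.98), Igfbp1 (adjusted p = 0.0512), Krt19 (0.96), Marco (0.0551), Pde4b (0.0717), Timp3 (0.0518), Ttr (0.92) and Ugt1a1 (-0.95). It moved Abcb11 to -1.04, Actg2 to -1.15, Akr1d1 to -1.21 and Slco1a4 to -1.27. Against DMSO, library sizes alone ended those of Sox18 (adjusted p = 0.0518), Timd4 (0.0512) and Wwc1 (0.99), and a fit of both groups alone that of Nr0b2 (0.0601). Signs turned for uncalled genes and for none that was called. With the offset for GC content and length Acaca was at 0.24, Acly at 0.086, Adcy1 at 0.20, G6pc at -0.013, Hspa5 at 0.068 and Mki67 at 0.35. With library sizes alone Cdkn1b was at -0.015 and G6pc at -0.0044, and with limma at a pseudocount of 1 and of 0.1 Cdkn1b was at -0.052 and -0.057 and Pdgfrb at -0.0018 and -0.0024. Leaving out each library in turn, the log2 fold change against DMSO ran for Cdkn1b from -0.43 to 0.36, for Cps1 from -0.029 to 0.66, for Cthrc1 from -1.02 to 0.16, for Cyp2c38 from -0.56 to 0.60, for G6pc from -0.37 to 0.61, for H2-Aa from -0.47 to 0.68, for Otc from -2.09 to 0.63, for Pdgfrb from -0.082 to 0.12 and for Ugt1a5 from -0.35 to 0.47.
No paired analysis was possible because the labels of the 5C-F libraries carry no replicate number and those of DMSO and 5C share none. With 2 libraries a group, and 5C-F libraries that differed from each other along GC content, modest changes of single genes remain imprecise.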

Other observations

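Among called genes outside the lists with a mean of at least 100 CPM (counts scaled to library size), 40 were higher and 84 lower in 5C-F than in DMSO, and those named here were chosen after their values were seen. The simple epithelial keratins rose as a pair, Krt18 from 207 and 205 to 811 and 953 FPKM (log2 fold change 2.12, SE 0.21) and Krt8 from 217 and 220 to 688 and 784 FPKM (1.77, SE 0.20), and both were higher than in 5C (1.81 and 1.52, edgeR adjusted p = 0.000115 and 0.000412). Clu, the secreted chaperone clusterin, rose from 581 and 679 to 1986 and 2446 FPKM (1.84, SE 0.18) and exceeded 5C by 1.59 (adjusted p = 8.9e-05). Sprr1a, a cornified envelope protein, rose from 27.4 and 24.1 to 224 and 262 FPKM (3.26, SE 0.28), and the tetraspanin Tspan8 from 42.6 and 41.5 to 167 and 160 FPKM (1.98, SE 0.16). H19, an imprinted RNA of fetal liver, rose from 62.3 and 49.9 to 256 and 285 FPKM (2.29, SE 0.19), and its difference from 5C was -0.09 (adjusted p = 0.802).

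Podxl, podocalyxin, fell from 40.6 and 41 to 6.64 and 9.48 FPKM (-2.32, SE 0.18) and was lower than in 5C (adjusted p = 1.94e-05). F13a1, a coagulation factor subunit of macrophages, fell from 201 in both DMSO libraries to 59.4 and 47.5 FPKM (-1.88, SE 0.22), and Piezo1, a mechanically gated channel, from 20.9 and 18.3 to 5.26 and 5.98 FPKM (-1.78, SE 0.33). Il1r1, the interleukin receptor, fell from 61 and 59 to 16.1 and 17.8 FPKM (-1.80, SE 0.19). The groups did not overlap for any gene named in these paragraphs, but genes chosen for their values are likely to show this.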
